A study of Mus musculus and Homo sapiens with 10 samples.

Results

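Double-strand break ends were examined along Cdk5rap2 (gene 214444), which spans 193581 bases of mouse chromosome 4, 70216855 to 70410435 in GRCm38, and in its break-rich 10 kb window, chr4:70370001-70380000. The gene is 1 of 21883 protein-coding genes on the main mouse chromosomes and the window is 1 of 252482 windows of 10 kb that held a break end. Both were chosen by their counts of break ends, which differed between Cd73 gates, so every level and fold change between gates given here for the gene, the window or its positions is a description, with no test. The mouse data came from enterocytes, the absorptive cells of the gut lining, isolated from the jejunum and sorted on the surface enzyme Cd73, the product of Nt5e, into Cd73 high, Cd73 mid and Cd73 negative cells, with 2 libraries per gate (replicates 1 and 2). The titles number the libraries of each gate M1 and M2, given here as replicates 1 and 2. The labels name no treatment, strain, age or sex and do not say what M stands for, so it is not stated whether the replicates were separate animals or shared by the gates, and their spread may be technical. Libraries were made by in-suspension BLISS, a method that blunts the broken ends inside permeabilised cells, joins an adapter to them and copies the flanking DNA into RNA from that adapter for sequencing. The series' other 4 libraries are of the human cell line TK6 and were not used.

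Cdk5rap2 encodes a large coiled-coil protein of the centrosome. It helps to anchor gamma-tubulin ring complexes, the templates on which microtubules grow, in the pericentriolar material, and mutations of the human gene cause primary microcephaly. In RefSeq the mouse gene lies on the minus strand, so that transcription starts at 70410435 and runs towards lower coordinates, and the window begins 30435 bases and ends 40434 bases downstream of the start. Exon coordinates and the sequence of the chromosome were not used here, so it is not stated whether the window is exonic or intronic, and its bases are not printed. One other annotated gene of any kind overlaps Cdk5rap2, the pseudogene Ywhaq-ps3, and it lies outside the window.

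The libraries differed in depth along with the gates. The Cd73 high libraries held 1524196 and 1274333 nuclear break ends, the mid libraries 4761549 and 5164795, and the negative libraries 13051999 and 12594311. Levels are therefore given as break ends per 1000000 nuclear break ends of the library (EPM), and the main counts are also given with each library thinned at random to 1272771 break ends. Depth and gate cannot be told apart in these data, and thinning does not separate them. Intervals on shares are exact 95% binomial intervals. They cover counting error only, take each break end as an independent count and leave out the spread between libraries. It is not stated whether a count is of molecules or of reads, and if of reads the intervals may be too narrow.

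Cdk5rap2 as a whole carried 221 and 203 break ends in the Cd73 high libraries, 585 and 596 in the mid libraries, and 1352 and 1241 in the negative libraries. This corresponded to 152 ± 10.1 EPM in high, 119 ± 5.28 EPM in mid and 101 ± 3.57 EPM in negative cells (mean ± SD, n = 2 each). The gates did not overlap, with both high libraries above both mid libraries and both mid libraries above both negative libraries. Per kilobase, the gene ranked 5294 and 4010 of 21883 genes in the high libraries, 7366 and 9542 in the mid libraries, and 11209 and 12144 in the negative libraries. In negative cells the gene was thus near the middle of all genes.

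The order by gate lay in the 10 kb window. It is 5.17% of the gene's length and held 121 and 111 break ends in the high libraries, 172 and 209 in the mid libraries, and 289 and 291 in the negative libraries. The level was 83.2 ± 5.46 EPM in high, 38.3 ± 3.07 EPM in mid and 22.6 ± 0.681 EPM in negative cells (SD, n = 2 each), without overlap between gates. Of the gene's break ends, the window held 54.8% (interval 47.9% to 61.4%) and 54.7% (47.6% to 61.7%) in the high libraries. The share was 29.4% (25.7% to 33.3%) and 35.1% (31.2% to 39.0%) in the mid libraries, and 21.4% (19.2% to 23.7%) and 23.4% (21.1% to 25.9%) in the negative libraries. The intervals of both high libraries lay above all others, and those of mid replicate 1 and negative replicate 2 overlapped. The rest of the gene gave 65.6 and 72.2 EPM in the high libraries, 86.7 and 74.9 EPM in the mid libraries, and 81.4 and 75.4 EPM in the negative libraries. Outside the window the high libraries were therefore the lowest of the 6, below mid and negative libraries whose ranges overlapped. In EPM the median gene body stood at 0.914-fold in high against negative cells, a log2 shift of -0.13. In the fit over gene bodies the median log2 fold change was -0.06 by library size alone and -0.0021 with TMM scaling. In EPM the rest of Cdk5rap2 stood at 0.878-fold. Per kilobase, that rest ranked between 12865 and 15914 of 21883 genes in all 6 libraries.

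**Figure D1:**
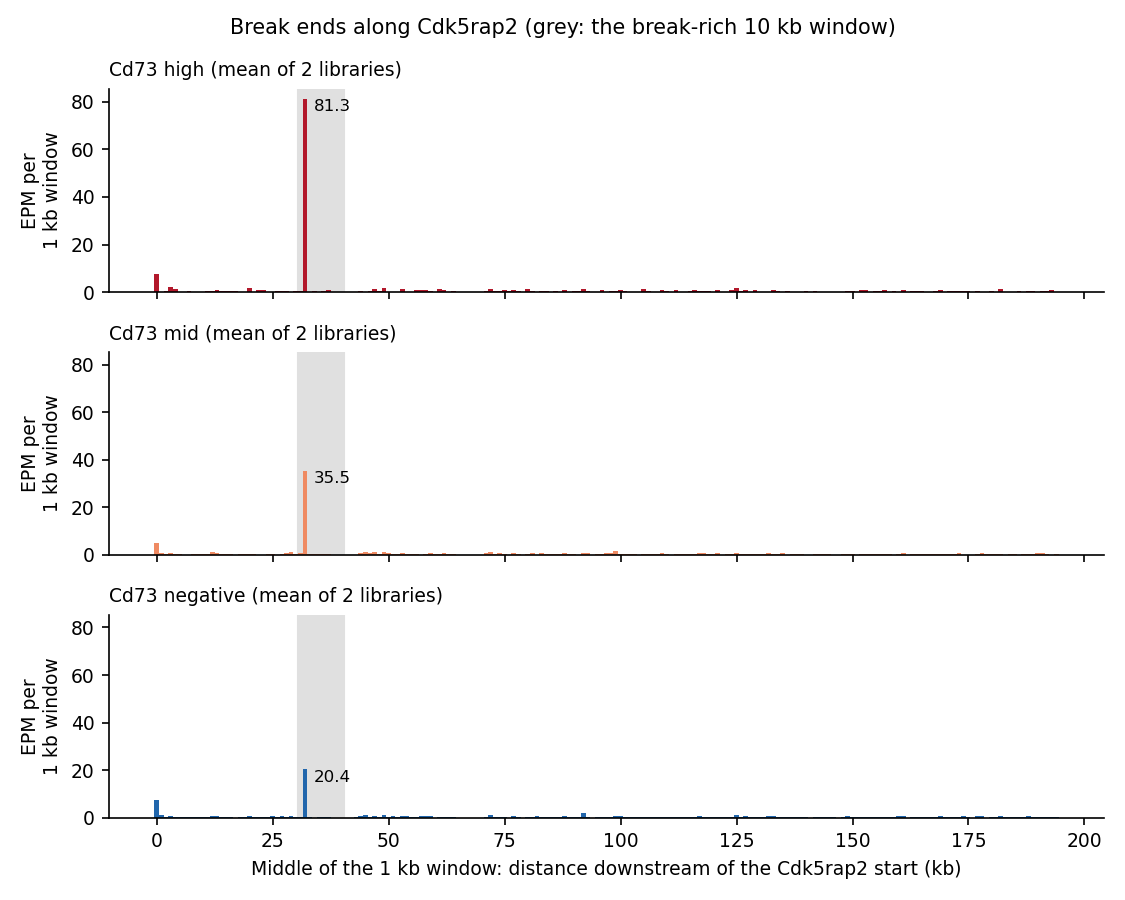
Break ends along Cdk5rap2 in 195 windows of 1 kb, by distance of the window's middle downstream of the gene start (kb); each bar is the mean EPM of 2 libraries of a gate, and the panels share a linear axis. A single 1 kb bar, within the grey 10 kb window, stood at 81.3 EPM in high, 35.5 EPM in mid and 20.4 EPM in negative cells, and the bar at the start was the next highest in each gate.

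In 1 kb windows the gene showed 1 peak and 1 minor rise over a low floor. The 1 kb window 70378001 to 70379000 held 121 and 106 break ends in the high libraries, 156 and 197 in the mid libraries, and 269 and 254 in the negative libraries. The second highest 1 kb window, 70410001 to 70411000, contains the gene start and also bases upstream of it, outside the gene. It averaged 7.60 EPM in high, 4.97 EPM in mid and 7.62 EPM in negative cells. By EPM summed over the 6 libraries, the third was 70318001 to 70319000, which averaged 1.51, 0.896 and 1.91 EPM in high, mid and negative cells. A typical 1 kb window of the gene held a median of 0 break ends in both high libraries, 2 in both mid libraries and 5 in both negative libraries.

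The 3 longest stretches of the gene without a break end in any library were 70339870 to 70346471 (6602 bases), 70367172 to 70372792 (5621 bases) and 70247969 to 70249482 (1514 bases). The second of these reaches 2792 bases into the 10 kb window, so that 2 of the window's 1 kb pieces were empty in all 6 libraries. The third covers nearly the same bases as Ywhaq-ps3, annotated at 70247954 to 70249435. Whether reads from these stretches could be placed uniquely by the aligner was not tested.

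Within the 10 kb window, nearly all break ends lay in 200 bases, chr4:70378101-70378300. Each of the 2 tiles of 100 bp there held over 100 break ends summed over the 6 libraries (854 and 241), and the next fullest tile of the window held 7; the cluster was drawn after these values were seen. It makes up 2% of the window and held 121 and 105 break ends in the high libraries, 156 and 197 in the mid libraries, and 264 and 252 in the negative libraries. Its share of the window was 100% and 94.6% in high, 90.7% and 94.3% in mid, and 91.3% and 86.6% in negative libraries. The cluster stood at 80.9 ± 2.13 EPM in high, 35.5 ± 3.80 EPM in mid and 20.1 ± 0.154 EPM in negative cells (SD, n = 2 each). The mean in high cells was 4.02-fold that in negative cells, and the mean in mid cells was 1.76-fold that in negative cells. The remaining 9800 bases of the window held 0 and 6 break ends in the high libraries, 16 and 12 in the mid libraries, and 25 and 39 in the negative libraries. That is 2.35 ± 3.33 EPM in high, 2.84 ± 0.733 EPM in mid and 2.51 ± 0.835 EPM in negative cells, which overlapped. A count of 0 in the first high library allows up to 3 break ends there.

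**Figure D2:**
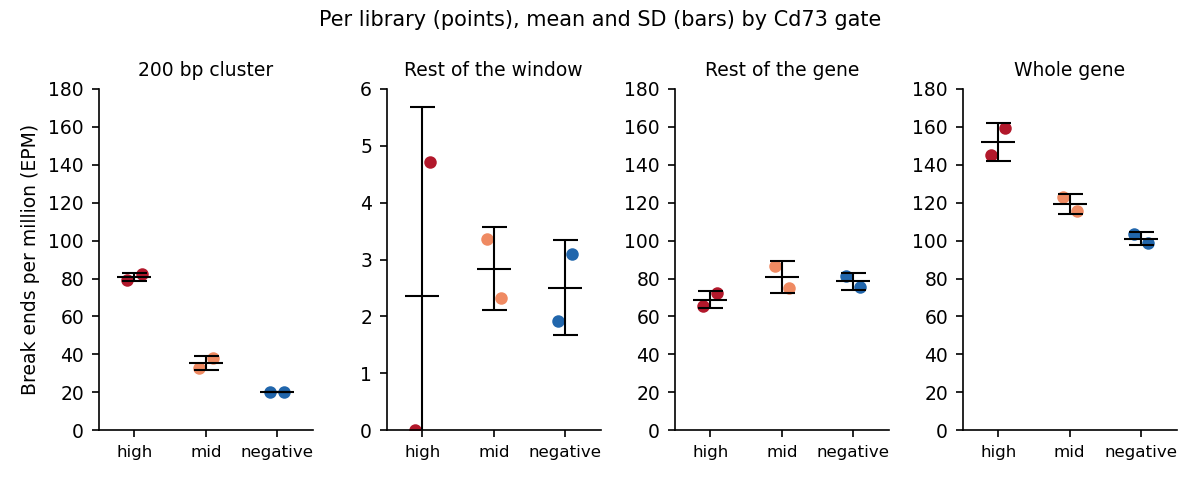
EPM of 4 regions of Cdk5rap2 by Cd73 gate; points are the 2 libraries, horizontal ticks the mean and bars the SD (cut at 0), and the second panel has an axis of its own. The gates separate in the 200 bp cluster and in the whole gene, and overlap in the rest of the window.

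Density set the cluster apart from its surroundings in every gate. It reached 404 EPM per kilobase in high, 177 EPM per kilobase in mid and 101 EPM per kilobase in negative cells. The gene without the window had 0.375, 0.440 and 0.427 EPM per kilobase in high, mid and negative cells. The 100 kb below the gene had 0.348, 0.344 and 0.300 EPM per kilobase in high, mid and negative cells, and the 100 kb above it 0.434, 0.398 and 0.473. The gene's floor was thus at the level of its flanks, and the flanks showed no order by gate that both shared.

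The break ends of the cluster lay at a small number of recurrent positions. Of the 71 positions hit in it, 9 were hit in all 6 libraries, against 0 of the 78 positions hit elsewhere in the window, none of which held more than 3 break ends in a library. The position with most break ends was 70378167, which is 32268 bases downstream of the gene start and serves here as position 0. It held 21 and 10 break ends in the high libraries, 60 and 82 in the mid libraries, and 151 and 130 in the negative libraries. Its level was 10.8 ± 4.19 EPM in high, 14.2 ± 2.32 EPM in mid and 10.9 ± 0.882 EPM in negative cells. At this position the mean in high cells was 0.988-fold that in negative cells, and the high libraries overlapped the libraries of both other gates.

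The position 14 bases above it, 70378181, was picked for having most break ends in the Cd73 high libraries. It ran in the opposite direction to depth. It held 33 and 31 break ends in the high libraries, 21 and 15 in the mid libraries, and 13 and 6 in the negative libraries, so that the shallowest libraries had the highest raw counts. The level was 23.0 ± 1.89 EPM in high, 3.66 ± 1.06 EPM in mid and 0.736 ± 0.367 EPM in negative cells. High cells stood 31.2-fold and mid cells 4.97-fold above negative cells, and the gates did not overlap. Among all positions with a break end, 70378181 ranked 20 and 18 in the high libraries, 131 and 384 in the mid libraries, and 4411 and 34618 in the negative libraries, ties sharing the best rank. Position 70378167 ranked between 26 and 68 in all 6 libraries.

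Other positions of the cluster fell on one side or the other. Position 70378164, 3 bases below position 0, had 6.62 ± 2.70 EPM in high, 1.63 ± 0.664 EPM in mid and 0.272 ± 0.0483 EPM in negative cells. Position 70378171, 4 bases above, had 3.21 ± 0.100 EPM in high, 1.32 ± 0.218 EPM in mid and 0.468 ± 0.0118 EPM in negative cells. These positions had high-to-negative ratios of 24.3 and 6.86. Position 70378207, 40 bases above, behaved like position 0, with 1.70 ± 1.301 EPM in high, 2.48 ± 1.42 EPM in mid and 1.83 ± 0.101 EPM in negative cells. Its ratio was 0.929 and its gates overlapped. At these low counts, of 1 to 24 break ends a library, single ratios carry a wide counting error.

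**Figure D3:**
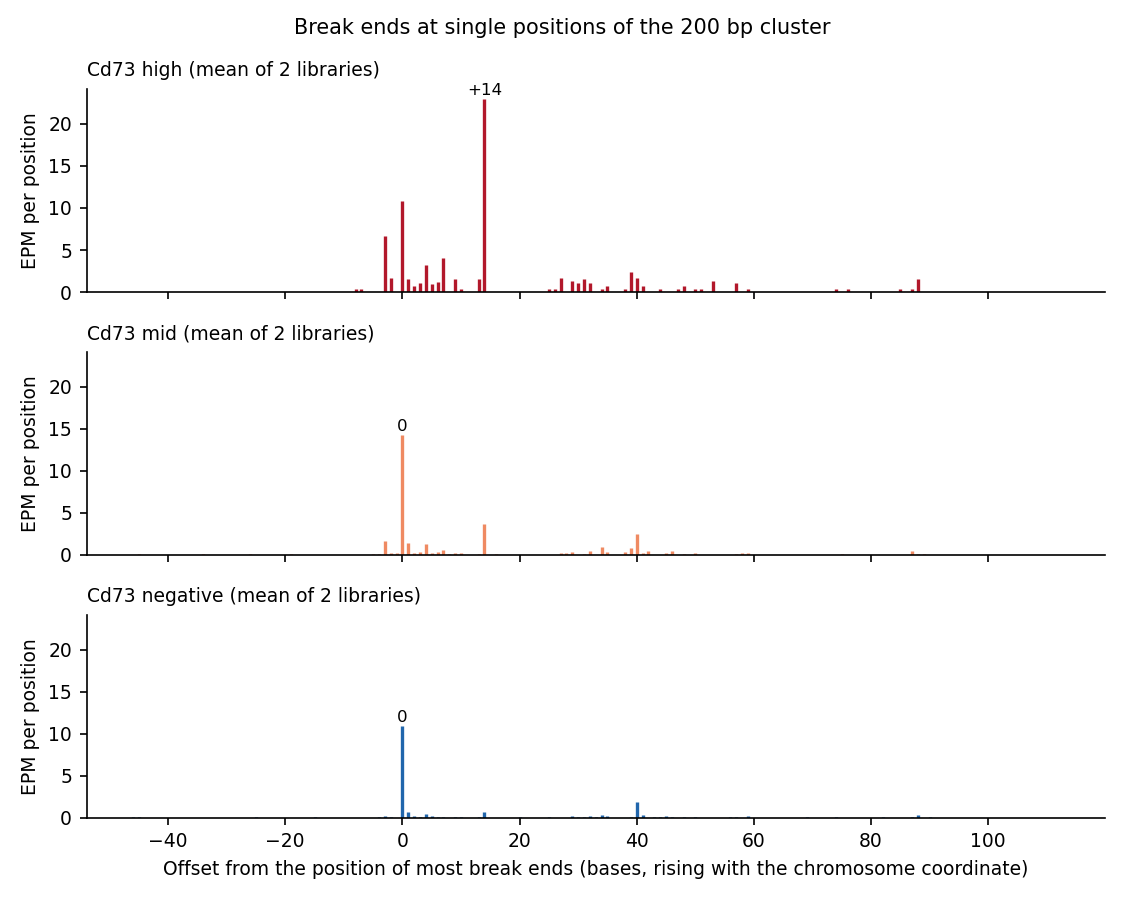
Mean EPM of 2 libraries at each single position of the cluster, by its offset in bases from the position of most break ends, for Cd73 high, mid and negative cells on a shared linear axis. The line at 0 has a like height in the 3 panels (10.8, 14.2 and 10.9 EPM), while the line at 14 stands at 23.0 EPM in high, 3.66 EPM in mid and 0.736 EPM in negative cells.

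The make-up of the cluster, as well as its size, thus differed by gate, as a description. Position 70378167 was picked for most break ends over the 6 libraries and 70378181 for most in the Cd73 high libraries. Part of the contrast between these positions may follow from that choice, and how much was not tested. Position 70378167 held 17.4% (interval 11.1% to 25.3%) and 9.52% (4.66% to 16.8%) of the cluster's break ends in the high libraries. Its share was 38.5% and 41.6% in the mid libraries, and 57.2% (51.0% to 63.2%) and 51.6% (45.2% to 57.9%) in the negative libraries. Position 70378181 held 27.3% and 29.5% in the high libraries, 13.5% and 7.61% in the mid libraries, and 4.92% and 2.38% in the negative libraries. For both positions the shares of the 3 gates kept apart, with mid in between, but some intervals overlapped. At 70378167 those of the mid libraries (30.8% to 46.6% and 34.7% to 48.8%) overlapped that of negative replicate 2. At 70378181 that of mid replicate 2 (4.32% to 12.2%) overlapped those of negative replicates 1 (2.65% to 8.27%) and 2 (0.879% to 5.11%). There, that of mid replicate 1 (8.53% to 19.8%) overlapped that of high replicate 1 (19.6% to 36.1%). Per break end at 70378167 there were 1.57 and 3.10 break ends at 70378181 in the high libraries, 0.350 and 0.183 in the mid libraries, and 0.0861 and 0.0462 in the negative libraries. These ratios are within a library and do not use its total.

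**Figure D4:**
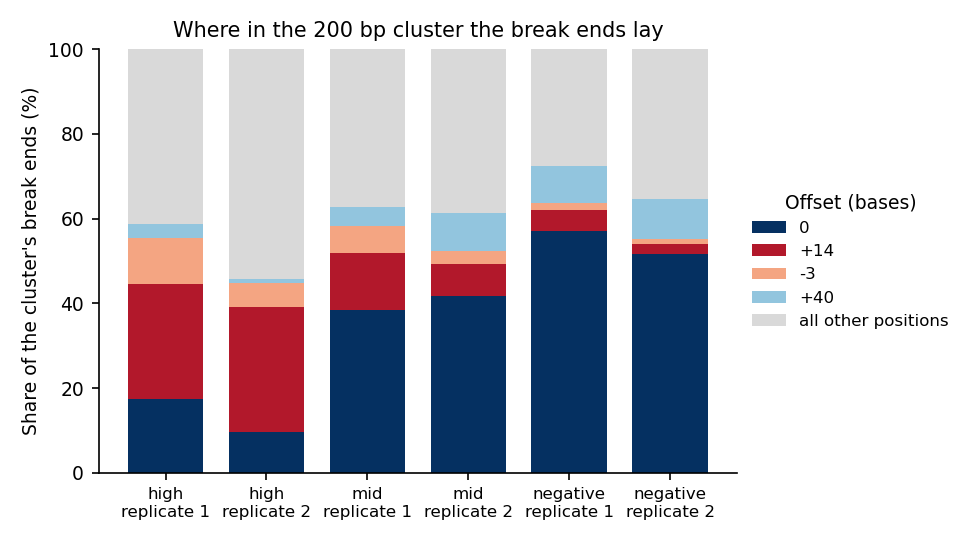
Share of the cluster's break ends (%) at the 4 positions with most EPM summed over libraries, named by their offset in bases from the position of most break ends, in each library of the Cd73 high, mid and negative gates. The share at 0 was at most 17.4% in the high libraries and at least 51.6% in the negative libraries, and the share at 14 ran the other way.

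With position 70378167 left out, the cluster held 65.6 and 74.5 EPM in the high libraries, 20.2 and 22.3 EPM in the mid libraries, and 8.66 and 9.69 EPM in the negative libraries. Ratios between gates were higher without that position, whose own high-to-negative ratio was 0.988, than with it. Differences in EPM were not all wider. Means in high and negative cells were 70.1 and 9.17 EPM without it and 80.9 and 20.1 EPM with it, nearly the same difference. The difference between mid and negative cells was smaller without it. Taking the cluster as a profile of shares over positions, the overlap of 2 libraries (the sum of the lower share at each position) was 63.7% between the high libraries, 75.5% between the mid libraries and 83.4% between the negative libraries. It was 34.2% to 39.5% between a high and a negative library, 42.3% to 56.5% between a high and a mid library, and 64.6% to 75.9% between a mid and a negative library. Profiles with fewer break ends share less by counting alone, and how far this lowers the values for high libraries was not tested.

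Random thinning keeps each region's share of its library in expectation, so the thinned counts restate the order in EPM and do not test it. Thinned to 1272771 break ends, the window held 104 and 111 break ends in the high libraries, 48 and 48 in the mid libraries, and 28 and 27 in the negative libraries. The cluster held 104 and 105, 45 and 46, and 24 and 24 in high, mid and negative libraries. The number of positions hit in the cluster was then 27 and 34 in the high libraries, 15 and 16 in the mid libraries, and 8 and 11 in the negative libraries. In the thinned libraries the rest of the gene held 83 and 92 break ends in high, 114 and 90 in mid, and 103 and 106 in negative libraries.

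In a fit of all 6 libraries over 17805 gene bodies, the log2 fold change of Cdk5rap2 was 0.71 (SE 0.13) for high against negative cells, 0.29 (SE 0.12) for mid against negative cells and 0.42 (SE 0.14) for high against mid cells. With the window's break ends removed, these were -0.07 (SE 0.15), 0.10 (SE 0.12) and -0.16 (SE 0.15). In the fit of 225350 windows of 10 kb, the window had 1.86 (SE 0.34), 0.75 (SE 0.33) and 1.11 (SE 0.34). Without its position of most break ends it had 2.60 (SE 0.32) for high against negative cells, and without the cluster -0.24 (SE 0.64). In the fit of 1 kb windows, the one holding the cluster had 2.26 (SE 0.22). The 3 comparisons share libraries and are not independent of each other.

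Calls at a Benjamini-Hochberg adjusted p under 0.05 in edgeR's quasi-likelihood test were rare over the genome, and they are part of how the gene and the window were chosen. For high against negative cells, Cdk5rap2 was the 1 gene called, 0.00562% of the genes tested, and the window was 1 of 2 windows of 10 kb called, 0.000888% of those tested. The window was not called with any 1 of the 4 high and negative libraries left out, and Cdk5rap2 was not called without high replicate 1, high replicate 2 or negative replicate 2. Cdk5rap2 was also not called with no filter on low counts or with thinning, where its log2 fold change was 0.69 and 0.67, nor with each position counted once, where it was 0.19 (SE 0.13). The other window called, chr9:3010001-3020000, overlaps no annotated gene. It held 34 and 40 break ends in the high libraries, 44 and 72 in the mid libraries, and 114 and 78 in the negative libraries, and its log2 fold change was 1.81, with an SE of 0.31 and an adjusted p of 0.00256. Of the gene's other 20 windows of 10 kb, 0 were called, and 5 had a positive and 15 a negative log2 fold change, with a median of -0.35. The median over all 10 kb windows was 0.0067. Of these 20, 2 had an unadjusted p under 0.05, where 6.14% of all windows did. For mid against negative cells, 0 of the 20 were called, where 0.000444% of all windows were, and 0 had an unadjusted p under 0.05, where 4.45% of all windows did. For high against mid cells, 0 of the 20 were called, as of all windows, and 1 had an unadjusted p under 0.05, where 4.89% of all windows did. In the 100 kb on either side, 0 of 20 windows were called in any of the 3 comparisons. Of these, 3 had an unadjusted p under 0.05 for high against negative, 1 for mid against negative and 3 for high against mid cells. The shares of all windows were 6.14%, 4.45% and 4.89%. The 3 for high against negative cells had log2 fold changes of 0.99, -1.21 and -1.32.

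The start of Cdk5rap2 was the other place along the gene's 1 kb windows with more break ends than the floor. The 300 bases from 250 before to 50 after the RefSeq start, chr4:70410386-70410685 on the minus strand (GRCm38.p6), are shown because they hold that rise. The capitals mark the 9 bases whose positions held at least 4 break ends summed over the 6 libraries.
Cdk5rap2 start: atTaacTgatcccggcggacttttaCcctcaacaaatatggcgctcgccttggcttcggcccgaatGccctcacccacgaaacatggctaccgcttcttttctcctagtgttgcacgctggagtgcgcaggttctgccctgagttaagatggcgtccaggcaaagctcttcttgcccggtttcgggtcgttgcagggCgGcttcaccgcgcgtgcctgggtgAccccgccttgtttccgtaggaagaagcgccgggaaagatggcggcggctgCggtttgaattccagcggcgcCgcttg
These 9 positions held 71.9% of the 167 break ends of the 300 bases, and 2 of them lie after the start. Most of the 167 break ends lie before the start, outside the gene body, and are not in the gene's counts. The GC content of the 300 bases was 60%, against a median of 52.7% over 32817 RefSeq starts.

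The 300 bases held 7 and 9 break ends in the high libraries, 16 and 12 in the mid libraries, and 53 and 70 in the negative libraries. This was 5.83 ± 1.75 EPM in high, 2.84 ± 0.733 EPM in mid and 4.81 ± 1.06 EPM in negative cells, with high and negative libraries overlapping and all 4 of them above both mid libraries. Between 0.128% and 8.83% of all starts held as many break ends or more in the same library, so the Cdk5rap2 start was in the upper tail of starts in all 6. The fullest position, 53 bases before the start at 70410488, held 0 and 3 break ends in the high libraries, 6 and 2 in the mid libraries, and 13 and 28 in the negative libraries. Unlike the cluster, the start showed no order of high over mid over negative cells.

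Set against the whole genome, the window's place depended on the gate. It ranked 8 and 8 of 252482 windows of 10 kb in the high libraries, 13 and 16 in the mid libraries, and 120 and 333 in the negative libraries. It stood at 24.2 and 22.2 times the median window in the high libraries, 9.56 and 11.6 times in the mid libraries, and 6.15 and 6.93 times in the negative libraries. The 1 kb window of the cluster ranked 11 and 10 in the high libraries, 14 and 15 in the mid libraries, and 18 and 25 in the negative libraries of 2355902. At 1 kb the peak was thus among the fullest windows of every gate.

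The windows above it in high cells were of both kinds. The fullest, chr17:39840001-39850000, holds the ribosomal RNA genes AY036118 and Rn18s-rs5, and had 1797 ± 363.9 EPM in high, 2013 ± 58.6 EPM in mid and 2065 ± 10.4 EPM in negative cells. The second, chr2:98660001-98670000, overlaps no annotated gene and had 923 ± 72.6 EPM in high, 476 ± 102 EPM in mid and 321 ± 32.5 EPM in negative cells. The third, chr9:35300001-35310000 over Gm33838, had a high-to-negative ratio of 2.14, the fourth, chr14:19410001-19420000, 2.88, and the fifth, chr11:3190001-3200000 over Sfi1 and Fau-ps2, 0.921. The Cdk5rap2 window, eighth by mean EPM, had a ratio of 3.68. Among these 8 windows, the 3 ratios nearest to it belonged to windows with no annotated gene on chromosomes 14, 2 and 9. Whether reads in the Cdk5rap2 cluster or in these other windows could be placed uniquely by the aligner was not tested, and their levels and ratios carry that limit.

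To set the cluster beside other dense places, tiles of 100 bp with at least 5 EPM in each Cd73 mid library were taken. This choice uses neither the high nor the negative libraries. There were 129 such tiles, in 54 loci. The rule sets a lowest level only, so density was not matched. Mean levels in mid cells ran from 5.34 to 208 EPM, and the cluster's tiles stood at 27.3 and 8.14 EPM. The median high-to-negative ratio of the 129 tiles was 0.839, and 49 of 129 had a ratio over 1. These values weigh a few loci heavily. Of the 129 tiles, 44 lay in 1 locus with the ribosomal RNA genes on chromosome 17 (median ratio 0.807), and 73 were on chromosomes 2, 9, 14 and 17. The tiles of the cluster had ratios of 4.31 and 3.07, which ranked 5 and 12. The highest ratio, 10.2, was at chr2:98662901-98663000, and 4 tiles stood above the cluster's first tile. Summed over a locus, the Cdk5rap2 cluster had the highest ratio of the 54 (4.02), followed by the chromosome 2 locus (2.96) and one in Il1rapl1 on chromosome X (2.73). Since the cluster was picked for its difference between gates, this order is a description.

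**Figure D5:**
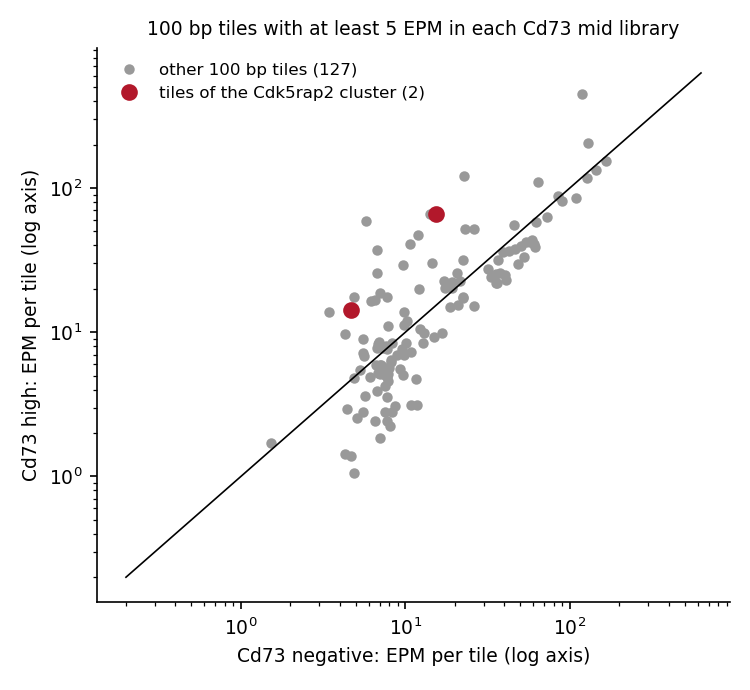
Mean EPM per 100 bp tile in Cd73 high cells (vertical) against Cd73 negative cells (horizontal), both on log axes, for 129 tiles with at least 5 EPM in each Cd73 mid library; the line marks equal levels. The 2 tiles of the Cdk5rap2 cluster (red) lie above the line at ratios of 4.31 and 3.07, and 80 of the 129 tiles lie on or below it. Of the 129 tiles, 44 belong to 1 locus on chromosome 17.

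Genes beside Cdk5rap2 on chromosome 4 were not called. Of the 5 nearest protein-coding genes on each side, 7 of 10 passed the filter on low counts, and 0 were called in any of the 3 comparisons, by edgeR or DESeq2. For high against negative cells, 2 of the 7 had an unadjusted p under 0.05, where 8.74% of all genes did. The log2 fold change was 0.30 (SE 0.15, adjusted p = 0.550) for Pappa, a metalloproteinase of growth factor binding proteins, and 0.30 (SE 0.13, adjusted p = 0.498) for Astn2, a neuronal membrane protein. Megf9, the next gene upstream of the Cdk5rap2 start, had 42.0 ± 8.33 EPM in high, 43.3 ± 3.77 EPM in mid and 48.1 ± 2.76 EPM in negative cells, and a log2 fold change of -0.09 (SE 0.17). Tlr4, a receptor for bacterial lipopolysaccharide, had -0.15 (SE 0.46), and Tle1, a transcriptional corepressor, -0.17 (SE 0.16).

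Break ends in other genes were compared as a list of 53, called the centrosome list here, all of them tested. It holds genes of the centrosome, of the spindle pole and of microcephaly. It also holds Cdk5, Cdk5r1, Cdk5rap1 and Cdk5rap3, listed for their link to Cdk5 and its regulators. For high against negative cells 0 were called (edgeR; 0 by DESeq2), 1 had an unadjusted p under 0.05 where 8.74% of all genes did, 23 log2 fold changes were positive and 30 negative, and the median was -0.03, against -0.0021 over all 17805 genes. The medians were 0.0074 for mid against negative cells and -0.05 for high against mid cells, with 0 called in either. The number at an unadjusted p under 0.05 was 0 for mid against negative cells, where 3.16% of all genes were, and 1 for high against mid cells, where 4.52% were. The 4 with the smallest p were Cep63, a centriole duplication factor (-0.50, SE 0.25, adjusted p = 0.558), Mzt1, a subunit of gamma-tubulin ring complexes (-0.78, SE 0.41), Cep250, the centriole linker protein (-0.34, SE 0.18) and Cntln, another linker protein (0.22, SE 0.14). Pcnt, the pericentriolar scaffold that binds Cdk5rap2, had 65.6 ± 3.74 EPM in high, 72.0 ± 8.83 EPM in mid and 72.9 ± 14.2 EPM in negative cells, and a log2 fold change of -0.02 (SE 0.15).

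Nt5e, which encodes the sorted marker, had 66 and 39 break ends in the high libraries, 166 and 183 in the mid libraries, and 337 and 343 in the negative libraries. Its log2 fold change was 0.62 (SE 0.19) for high against negative cells, with an adjusted p of 0.325. Of 47 marker genes of enterocytes and of other cell types the sort could hold, 44 were tested and 0 were called in any comparison by edgeR. At an unadjusted p under 0.05 there were 9 for high against negative, 1 for mid against negative and 4 for high against mid cells, where 8.74%, 3.16% and 4.52% of all genes were. The 7 lymphocyte genes, including Ptprc and Cd3e, all had positive log2 fold changes for high against negative cells, where 8848 of all 17805 genes did. The median of these 7 was 0.49, and 3 of them had an unadjusted p under 0.05. Their summed break ends were 111 and 118 EPM in the high libraries, 106 and 94.3 EPM in the mid libraries, and 102 and 82.4 EPM in the negative libraries, and 0 of the 7 were at 0 in any library. Of the 10 enterocyte genes, 4 had an unadjusted p under 0.05 for high against negative cells, 4 log2 fold changes were positive and 6 negative, and the median was -0.13. They summed to 118 and 121 EPM in the high libraries, 129 and 142 EPM in the mid libraries, and 151 and 148 EPM in the negative libraries. In the same comparison, 5 of 6 Paneth and crypt genes, 3 of 5 goblet genes and 2 of 4 tuft genes tested were positive. So were 2 of 7 stromal and endothelial genes and 1 of 5 enteroendocrine genes. These are breaks in genes, not RNA, and their part in the Cdk5rap2 values was not tested.

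The genes whose log2 CPM over the 6 libraries was most like that of Cdk5rap2 were Wdr89 and Gm11639 (Pearson r of 0.995 each), Khdrbs2 (0.994), Serpinb1b (0.993) and Oca2 (0.992). The points share gates and depth, and 580 of 17804 genes had a correlation over 0.9, so a high value was common.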

How the data were processed

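Each deposited file covers 1 library and gives a raw count of break ends at every single position, with no strand. The authors aligned reads to GRCm38 with BWA, per the submitters' processing notes. How reads were filtered by mapping quality, and how duplicates were treated, is not given in the sources used here. Counts on the main chromosomes were summed over protein-coding gene bodies (RefSeq, GRCm38.p6), windows of 1, 5, 10 and 20 kb and tiles of 100 bp. EPM are break ends per 1000000 nuclear break ends. Fits over all features used edgeR 4.0.16 in R 4.3.3 (quasi-likelihood test after filterByExpr and TMM scaling, with Benjamini-Hochberg adjustment), with all 6 enterocyte libraries and no block; 17805 genes and 225350 windows of 10 kb were tested. DESeq2 1.42.0 was an alternative. The fits were also run on simulated counts with known changes, drawn with a common dispersion for all features. Those counts had no piled-up positions, so they do not bear on the fit of the Cdk5rap2 window.

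The gene, the window, the lists and the alternatives were chosen with earlier results of these data known. Named genes were Cdk5rap2, its 5 nearest protein-coding neighbours on each side, Nt5e, the 4 genes of the centrosome list with the smallest p where under 4 were called, and the 5 most correlated genes; windows and positions were those called, those fullest in Cd73 high cells and the 5 fullest positions of the window. Pcnt, Il1rapl1, the positions of the start and the 100 bp tiles were added after values were seen. Same-numbered samples deviated together in mid and negative cells but not in the pairs with high cells, so the numbers were not taken to pair the samples: the correlation of their deviations over genes was -0.04 for high and negative, 0.34 for mid and negative and -0.05 for high and mid cells. The high libraries were the shallowest, and how far counting error lowers the correlations with them was not tested, so a pairing is not excluded.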

Additional observations from a re-analysis of the deposited data

How the results depend on the processing

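Depth, 2 libraries per gate and unknown mapping filters limit these values. For high against negative cells, the gene's log2 fold change was 0.63 to 0.79 with 1 library left out, and the window's was 1.78 to 1.90. With 1 library left out, the gene's was 0.20 to 0.37 for mid against negative and 0.33 to 0.51 for high against mid cells, the window's 0.63 to 0.83 and 1.01 to 1.21, and the gene's without the window -0.16 to 0.03, -0.06 to 0.24 and -0.31 to -0.01 for high against negative, mid against negative and high against mid cells. Gene bodies called for high against negative cells were then 0 to 2 and windows 0 to 2, against 1 and 2 with all libraries: leaving out high replicate 1, high replicate 2 or negative replicate 2 gave 0 genes and negative replicate 1 gave 2. Leaving out high replicate 2 gave 1 window, and high replicate 1 or either negative replicate 0.

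Counting each position once gave a log2 fold change of 0.19 (high against negative), 0.085 (mid against negative) and 0.11 (high against mid) for the gene, and 2.01 and 1.28 (high against negative and high against mid) for the window. Counted so, the window held 26.6%, 11.5% and 7.33% of the gene's positions and 26.1, 10.6 and 6.39 per 1000000 positions in high, mid and negative cells. Positions hit in the cluster numbered 29 and 34 in high, 32 and 37 in mid and 37 and 43 in negative libraries. Thinned to 1272771 break ends, they fell to 15 and 16 in mid and 8 and 11 in negative libraries. The number of positions hit thus depended on depth. All positions of a library rose with depth, and how far this sets the values counted so was not tested. Without positions of over 100 break ends, which removes 70378167, the window's log2 fold change was 2.60, its share 51.2%, 23.0% and 12.99% and its level 72.4, 24.1 and 11.7 EPM. With thinning, these were 2.16 for the fold change, 55.1% for the share in high and 20.8% in negative cells, 21.6 EPM for the level in negative cells, and 18 and 13 positions hit in the window in mid and negative cells, against 48 and 68.5 unthinned. The window's log2 fold change was 1.65 with 20 kb windows and, as alternatives added after seeing the data, 2.26 with 1 kb windows, 2.60 without its position of most break ends and -0.24 without its cluster, where the sign turned because the break ends that chose it were removed.

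The replicate number as a block left the gene's log2 fold change at 0.71 and changed no direction of the gene or window; it called 44 genes and 10 windows of 10 kb. Genes called numbered 0 with no filter and 0 with thinning, and the 1 gene called with each position counted once was Sfi1, not Cdk5rap2. Windows called numbered 6 with DESeq2, 12 with each position counted once and 11 with thinning. The cause of these changes in counts was not tested. The lists of centrosome genes and neighbours had 0 called under every alternative run. Of 115 values under alternatives other than left-out libraries, 80 moved by less than the spread between replicates or, for counts, less than 1.5 times.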
